A study of Mus musculus with 35 samples.

Results

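The replication licensing genes are 10 genes whose products load, restrain or follow the replicative helicase: Mcm2, Mcm3, Mcm4, Mcm5, Mcm6, Mcm7, Cdc6, Cdt1, Gmnn and Pcna. They were chosen by name from the 24480 genes of the count table, with earlier results of these data known, so their values are a description and each adjusted p below gives a gene's place in a fit over all genes, not independent support. Total RNA was sequenced from single C57BL/6NRj zygotes 17 h after ovulation and from early 2-cell (2C) embryos 5.5 to 8 h after division. Embryos had been injected either with water or with Kdm5b-yfp mRNA at about 1150 ng/µl, which encodes the H3K4 demethylase KDM5B joined to a yellow fluorescent protein. There were 10 water zygotes, 10 Kdm5b zygotes, 9 water 2C samples (6 single embryos, 1 pool of 2 blastomeres and 2 pools of 3) and 6 Kdm5b 2C samples (5 single embryos and 1 pool of 3 blastomeres). The authors made the pools from 2C embryos with only 1 intact cell left after injection, and discarded the dead cell.

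The zygotes came from several females and were wild type. The 2C embryos had been frozen and thawed as zygotes, and library preparation for them took place on a separate day, so stage cannot be told apart from thawing or library day, and the water control does not separate KDM5B from an injected mRNA as such. Libraries held 8705584 to 17797581 fragments on genes. Kdm5b took 2.30 to 15.8% of them after its injection and at most 0.0189% after water, and its row was removed before normalisation. Summed TPM of 10 cumulus cell markers stayed between 1.06 and 20.6 in every library, with Ptx3 and Amh at 0 in all water 2C and Amh and Inhba at 0 in all Kdm5b 2C samples. Other markers did have counts. Has2 had 13 to 77 fragments in water 2C and 0 to 43 in Kdm5b 2C samples. Tnfaip6, Foxl2, Cyp11a1 and Star reached 53, 36, 39 and 57 in water 2C samples, and Ptx3 reached 11 in Kdm5b 2C samples. The 6 oocyte markers summed to 1693 to 6327 TPM, and the 6 2-cell markers to 4.40 to 29.1 TPM in zygotes and 78.2 to 573 TPM in 2C samples. All values are shares of a library, so fewer transcripts of a gene and more RNA from other genes cannot be told apart.

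Before DNA is copied, the origin recognition complex, CDC6 and CDT1 load the ring of MCM2 to MCM7 onto origins, which licenses them to fire. Geminin, the product of Gmnn, binds CDT1 and blocks further loading once S phase has begun, and PCNA is the sliding clamp that holds polymerases on the template and serves as a platform for the destruction of CDT1. Fully grown oocytes store transcripts of these factors for the first embryonic cell cycles, which run on maternal stores until the embryo's own genome is transcribed.

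Promoter windows of 4 members are shown because the genes changed to different extents between groups, and because E2F factors, which bind sites close to the octamers marked here, are textbook regulators of replication genes. Each runs 5′ to 3′ on the sense strand in lower case, ends at or before the RefSeq start site (GRCm38.p6), and carries in capitals each match to TTTCCCGC, TTTCGCGC, TTTGCCGC or TTTGGCGC on either strand.
Mcm6 (minus strand, chr1:128359706-128359955): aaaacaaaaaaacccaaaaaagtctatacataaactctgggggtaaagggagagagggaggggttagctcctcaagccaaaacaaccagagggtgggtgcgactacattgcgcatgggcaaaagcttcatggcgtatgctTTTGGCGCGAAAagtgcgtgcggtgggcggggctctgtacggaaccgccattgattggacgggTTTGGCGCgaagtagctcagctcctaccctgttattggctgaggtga
Mcm5 (plus strand, chr8:75109259-75109467): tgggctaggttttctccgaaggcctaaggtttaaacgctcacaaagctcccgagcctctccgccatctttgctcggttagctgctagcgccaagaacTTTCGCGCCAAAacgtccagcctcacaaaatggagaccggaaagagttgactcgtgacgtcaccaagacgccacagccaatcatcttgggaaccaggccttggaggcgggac
Pcna (minus strand, chr2:132253181-132253430): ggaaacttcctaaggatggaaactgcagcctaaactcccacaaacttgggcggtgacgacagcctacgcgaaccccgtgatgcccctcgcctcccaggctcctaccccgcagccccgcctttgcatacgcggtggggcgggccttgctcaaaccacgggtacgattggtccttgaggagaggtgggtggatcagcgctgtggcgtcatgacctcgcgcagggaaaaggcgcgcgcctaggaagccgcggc
Mcm2 (minus strand, chr6:88898781-88899030): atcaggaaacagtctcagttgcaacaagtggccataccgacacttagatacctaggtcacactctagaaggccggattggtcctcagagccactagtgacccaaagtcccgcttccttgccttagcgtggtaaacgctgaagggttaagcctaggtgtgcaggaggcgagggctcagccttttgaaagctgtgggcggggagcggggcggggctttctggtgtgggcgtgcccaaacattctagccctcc

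The 250 bases before the Mcm6 start held 3 matches, beginning 110, 106 and 47 bases before it, of which the first 2 overlap. Mcm5 held 2 overlapping matches, beginning 153 and 149 bases before a start at chr8:75109509, and the windows of Pcna and Mcm2 held none. The printed Mcm5 window shows only 209 of the 250 bases searched, because it stops before the RefSeq start at chr8:75109468. The marked matches therefore stand closer to the end of the printed sequence than these distances. RefSeq promoter entries were matched for 8 members (9 windows, of which Mcm7 had 2), and Mcm4 and Gmnn had no entry. Mcm7 and Cdc6 held 1 match each, at 165 and 138 bases before a start, and Mcm3 and Cdt1 none. Both of those matches lay inside the RefSeq span of the gene itself. Only 22 bases of that Mcm7 window, and 0 of the Cdc6 window, lay outside it. Windows were searched whole, here and over all genes. Among all 32851 windows of this length 1.86% held a match, against 4 of the 9 here. The letters CCAAT, read on either strand, were in 7 of the 9 windows and in 33.8% of all windows. A match is a run of letters and no evidence of binding.

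Levels were first compared per transcript length, as TPM (transcripts scaled to a fixed library total). In water zygotes Pcna had the highest median (240 TPM), followed by Mcm2 (215), Gmnn (205), Cdt1 (189), Mcm4 (164), Mcm7 (143), Mcm5 (122), Mcm3 (96.3), Mcm6 (76.04) and Cdc6 (61.1). Neighbours in this order overlapped in range except Mcm5 with Mcm3 and Mcm3 with Mcm6. In Kdm5b zygotes the order was identical and the medians ran from 239 TPM for Pcna to 62.6 for Cdc6, with every pair of neighbours overlapping.

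In water 2C samples the order changed, with Gmnn (211 TPM), Mcm2 (210) and Pcna (204) ahead of Cdt1 (98.9), and with Mcm6 (63.7), Mcm4 (55.7), Mcm5 (52.1), Mcm3 (42.4), Mcm7 (42.1) and Cdc6 (16.9) behind. Every pair of neighbours overlapped in range. In Kdm5b 2C samples Mcm2 (212), Gmnn (184), Pcna (128) and Cdt1 (104) led, and Mcm4 (49.8), Mcm5 (39.1), Mcm7 (34.9), Mcm6 (33.0), Mcm3 (24.6) and Cdc6 (16.6) followed. There only Cdt1 and Mcm4 did not overlap. Mcm6 was thus the lowest subunit gene of the helicase in all 20 zygotes, and in 2 of the 6 Kdm5b 2C samples, while Mcm3 was lowest in 7 and Mcm7 in 2 of the 9 water 2C samples.

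The 6 helicase subunits sit in the ring in equal number, but their transcripts were unequal. Mcm2 was highest of the 6 in all 35 libraries, and the ratio of the highest to the lowest had a median of 2.89 in water zygotes (2.53 to 3.64) and 3.45 in Kdm5b zygotes (2.53 to 4.55). It was 5.75 in water 2C (4.24 to 7.67) and 8.49 in Kdm5b 2C samples (5.71 to 15.3). The water 2C range overlapped that of Kdm5b zygotes but not that of water zygotes, and the Kdm5b 2C range overlapped neither zygote group. The summed TPM of the 6 subunits was 821 ± 25.3 in water zygotes (SD, n = 10), 783 ± 52.6 in Kdm5b zygotes (SD, n = 10), 492 ± 137 in water 2C (SD, n = 9) and 414 ± 89.1 in Kdm5b 2C samples (SD, n = 6). The ratio of Gmnn to Cdt1, inhibitor to its target, was 1.10 ± 0.0681 and 1.08 ± 0.126 in water and Kdm5b zygotes, and 2.27 ± 0.608 and 1.85 ± 0.328 in water and Kdm5b 2C samples (SD, same n). In all 15 2C samples except the lowest water sample, at 1.24, this ratio was above the highest zygote, at 1.26.

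**Figure D1:**
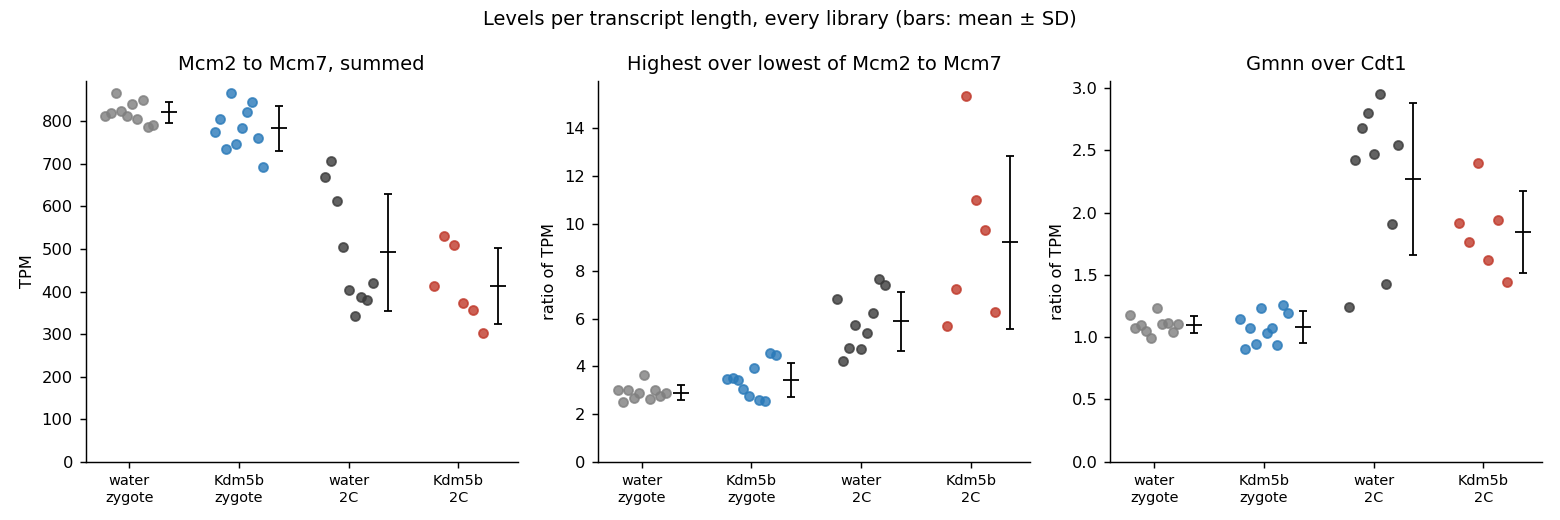
Summed TPM of Mcm2 to Mcm7, the ratio of the highest to the lowest of these 6 genes, and the ratio of Gmnn to Cdt1, each with 1 point per library in 4 groups and bars for mean ± SD. Summed levels reached at most 707 TPM in 2C samples and were at least 694 TPM in zygotes, while both ratios had higher means in 2C samples (5.90 and 9.22 for the first, 2.27 and 1.85 for the second).

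The first comparison asked how the stored transcripts differed between the late zygote and the early 2C embryo in water controls. Transcripts of the loader Cdc6 and of 4 of the 6 helicase subunits fell, Cdt1 fell less, and Mcm2, Mcm6, Pcna and Gmnn did not pass the test. Normalised counts (CPM, fragments scaled to a fixed library total) are given below as lowest, median and highest.

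Cdc6, the ATPase that recruits the helicase to origins, had 80.9, 94.1 and 118 CPM in water zygotes and 21.4, 28.6 and 36.5 CPM in water 2C samples. The groups lay far apart, and the fall was the largest of the 10 (log2 fold change -1.73, SE 0.12, 3.32-fold, edgeR adjusted p = 2.04e-11). Cdt1, its partner in loading, had 116, 137 and 150 CPM in zygotes and 54.5, 73.4 and 122 CPM in 2C samples, where a single 2C library, replicate 1, reached into the zygote range (log2 fold change -0.79, SE 0.12, adjusted p = 6.34e-06).

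Mcm4 had 154, 192 and 206 CPM in water zygotes and 46.2, 65.03 and 99.8 CPM in water 2C samples, with no overlap (log2 fold change -1.39, SE 0.11, adjusted p = 3.49e-10). Mcm7 had 94.2, 112 and 129 CPM in zygotes and 16.0, 36.3 and 81.5 CPM in 2C samples, the widest spread of any member, with a coefficient of variation of 51.0% (log2 fold change -1.34, SE 0.21, adjusted p = 6.03e-06). Mcm3 had 82.8, 91.7 and 105 CPM in zygotes and 23.6, 40.2 and 70.1 CPM in 2C samples (log2 fold change -1.14, SE 0.16, adjusted p = 1.08e-06). Its 3 pooled 2C samples, at 23.6 to 29.5 CPM, lay below the 6 single embryos, at 34.3 to 70.1 CPM, and without pools its log2 fold change was -0.91. Mcm5 had 121, 136 and 152 CPM in zygotes and 48.7, 64.5 and 99.1 CPM in 2C samples, again apart (log2 fold change -0.99, SE 0.13, adjusted p = 4.10e-07).

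Mcm2 stood apart from the other subunits, with 212, 237 and 268 CPM in water zygotes and 121, 255 and 347 CPM in water 2C samples, which spanned the zygotes on both sides (log2 fold change 0.07, 95% interval -0.20 to 0.35, adjusted p = 0.683). Mcm6 had 96.9, 110 and 116 CPM in zygotes and 63.9, 91.8 and 129 CPM in 2C samples (log2 fold change -0.17, interval -0.37 to 0.04, adjusted p = 0.172). For these subunits a change of the size seen in Mcm4 lay outside the interval. Pcna had 80.8, 96.7 and 109 CPM in zygotes and 55.9, 84.7 and 114 CPM in 2C samples (log2 fold change -0.10, interval -0.32 to 0.12, adjusted p = 0.448). Gmnn had 57.3, 65.9 and 74.6 CPM in zygotes and 55.5, 67.98 and 117 CPM in 2C samples (log2 fold change 0.19, interval -0.04 to 0.42, adjusted p = 0.168).

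By adjusted p, 6 of the 10 fell, where 25.4% of the 11968 genes tested fell and 26.8% rose, and none of the 10 rose. With a log2 fold change beyond 1 in size required as well as the adjusted p of 0.05, there were 4 of the 10 (Mcm3, Mcm4, Mcm7, Cdc6) beside 13.0% of all genes. In 5 of the 10 every 2C sample lay below every zygote, as in 10.9% of all genes. The median log2 fold change was -0.89 over the 10 and 0.02 over all genes. With only the 3 water 2C libraries U85 to U87, 2 passed both thresholds (Mcm4 and Cdc6), and Mcm2 rose (log2 fold change 0.45, edgeR adjusted p = 0.000232). The share of all genes called in that smaller fit was not computed.

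**Figure D2:**
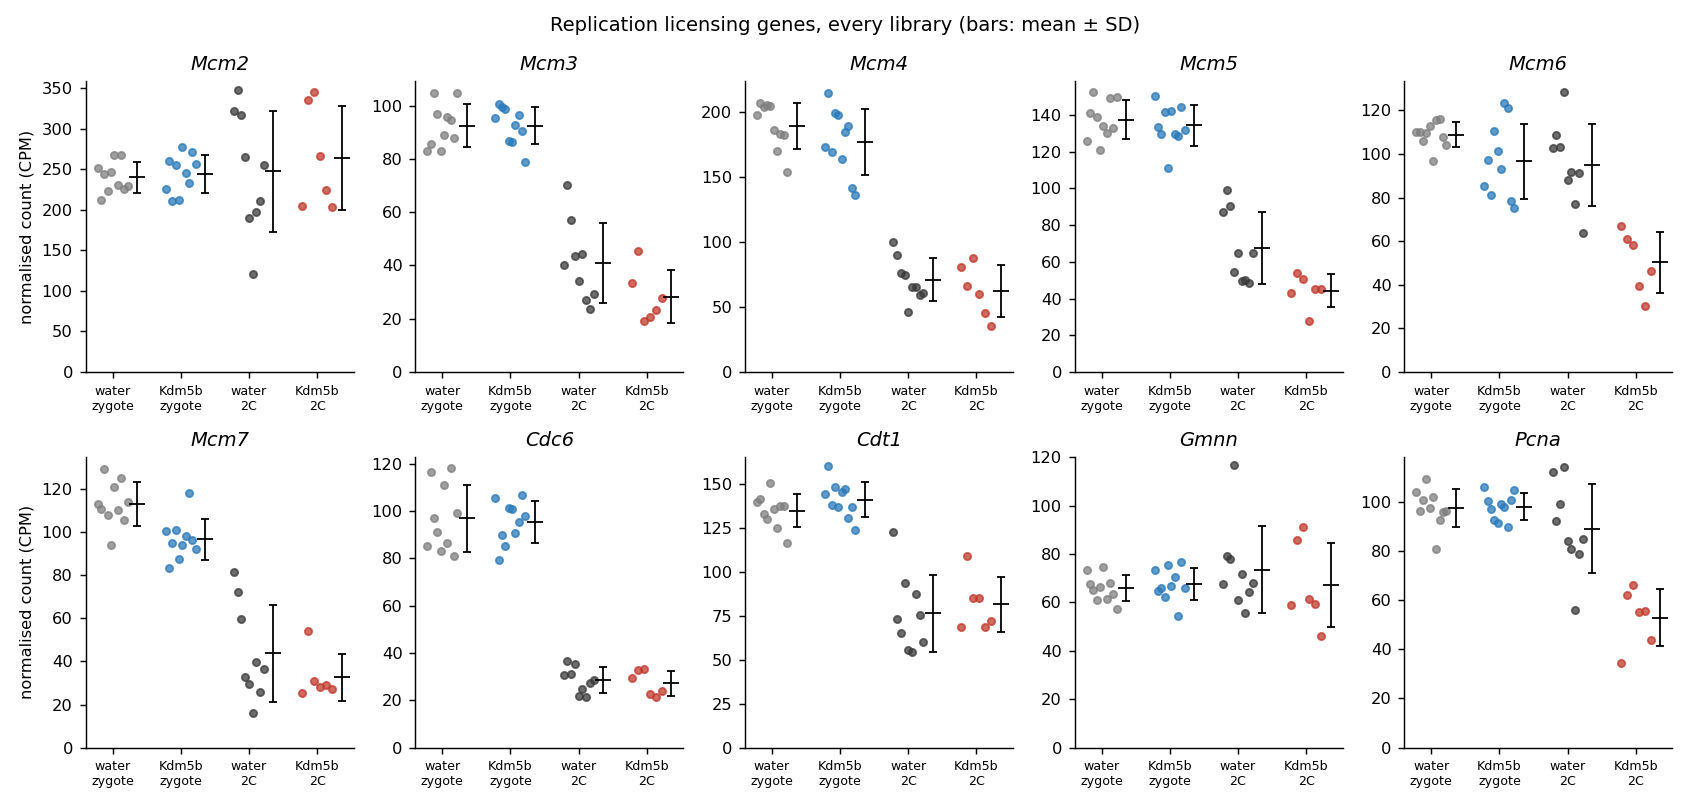
Normalised count (CPM) of the 10 genes, with 1 point per library in 4 groups and bars for mean ± SD. Cdc6, Mcm3, Mcm4, Mcm5 and Mcm7 sit lower in both 2C groups than in both zygote groups, whereas Mcm2 and Gmnn overlap between stages, and Mcm6 and Pcna are lowest in Kdm5b 2C samples (medians 52.3 and 55.2 CPM).

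In Kdm5b-injected embryos the same comparison used no sample of the water comparison. Cdc6 had 79.5, 96.7 and 107 CPM in Kdm5b zygotes and 21.3, 26.7 and 33.1 CPM in Kdm5b 2C samples (log2 fold change -1.80, SE 0.11, edgeR adjusted p = 6.15e-12). The 4 subunit genes that fell in water embryos fell here too, with log2 fold changes of -1.69 for Mcm3 (SE 0.15, adjusted p = 8.24e-10), -1.59 for Mcm5 (SE 0.11, adjusted p = 3.89e-11), -1.56 for Mcm7 (SE 0.14, adjusted p = 1.11e-09) and -1.49 for Mcm4 (SE 0.15, adjusted p = 1.21e-08). Mcm6 fell too, from 75.3, 95.1 and 123 CPM to 30.3, 52.3 and 66.9 CPM (log2 fold change -0.93, SE 0.15, adjusted p = 1.31e-05). Pcna fell from 89.5, 98.5 and 106 CPM to 34.6, 55.2 and 65.9 CPM (log2 fold change -0.88, SE 0.11, adjusted p = 3.21e-07). For both genes every Kdm5b 2C sample lay below every Kdm5b zygote. Cdt1 fell by 0.78 on the log2 scale (SE 0.10, adjusted p = 3.02e-07).

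Mcm2 and Gmnn again did not pass. Mcm2 had 211, 250 and 277 CPM in Kdm5b zygotes and 203, 245 and 346 CPM in Kdm5b 2C samples (log2 fold change 0.12, 95% interval -0.11 to 0.34, edgeR adjusted p = 0.366). Gmnn had 54.5, 66.5 and 76.8 CPM and 46.2, 60.5 and 91.1 CPM (interval of the log2 fold change -0.25 to 0.25). By adjusted p 8 of the 10 fell beside 29.5% of the 12390 genes tested, with 29.3% of genes higher and none of the 10. Both thresholds were passed by 5 of the 10 (Mcm3, Mcm4, Mcm5, Mcm7, Cdc6) beside 16.0% of genes, and 8 of the 10 did not overlap between stages, beside 16.4%. The median log2 fold change of the 10 was -1.21.

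**Figure D3:**
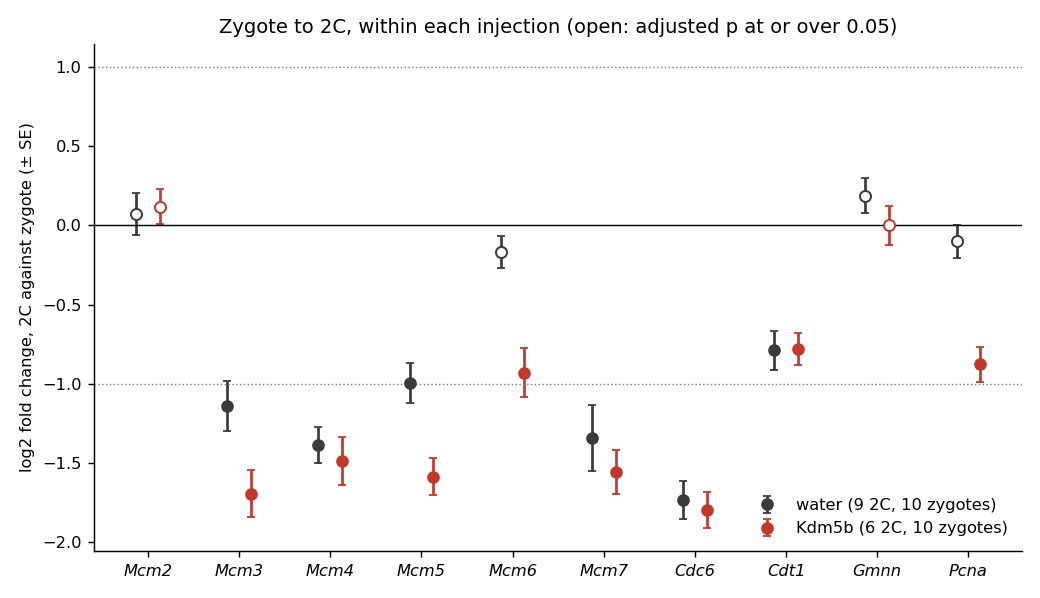
Log2 fold change of each gene between 2C samples and zygotes, within water and within Kdm5b injection, with bars of 1 SE. Open points have an adjusted p at or over 0.05, and Mcm2 and Gmnn are open in both while Mcm6 and Pcna are open in water and filled at -0.93 and -0.88 in Kdm5b.

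Next, the effect of Kdm5b-yfp mRNA was examined in zygotes. None of the 10 genes passed, and 0.117% of the 11933 genes tested were lower by adjusted p. At an unadjusted p under 0.05 there was 1 of the 10, Mcm7, beside 10.3% of all genes, and with DESeq2's Wald test it passed (adjusted p = 0.0455). Mcm7 had 94.2, 112 and 129 CPM in water zygotes and 83.5, 95.6 and 118 CPM in Kdm5b zygotes, with 9 of the 10 Kdm5b zygotes below the water median (log2 fold change -0.22, SE 0.06, edgeR adjusted p = 0.173). Mcm6 had a log2 fold change of -0.16 (SE 0.08, adjusted p = 0.499), and its spread was wider in Kdm5b zygotes, at 17.9% of the mean against 5.22% in water zygotes. The 95% intervals of the other 8 genes lay between -0.24 and 0.19.

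In 2C samples the largest differences between Kdm5b and water were in Mcm6, Pcna and Mcm5. None passed by adjusted p in the fit of all 15 samples, in which 0.0245% of the 12244 genes tested were lower. At an unadjusted p under 0.05 there were 4 of the 10, Mcm6, Pcna, Mcm5 and Mcm3, beside 9.41% of all genes. The median log2 fold change was -0.29 over the 10 and -0.00 over all genes.

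Mcm6, in Kdm5b 2C samples 1 to 6, had 66.9, 61.01, 58.1, 39.4, 30.3 and 46.5 CPM, against 63.9, 91.8 and 129 CPM in water 2C samples. All 6 lay below the water median and 5 below the lowest water sample, a pool of 3 blastomeres (log2 fold change -0.90, SE 0.18, 95% interval -1.28 to -0.53, edgeR adjusted p = 0.0894). Pcna had 34.6, 61.95, 65.9, 55.0, 55.4 and 43.9 CPM, against 55.9, 84.7 and 114 CPM in water samples (log2 fold change -0.75, SE 0.17, interval -1.09 to -0.40, adjusted p = 0.119). All 6 lay below the water median, and 4 below the lowest water sample, also a pool. Mcm5 had 43.2, 53.9, 50.6, 27.6, 45.4 and 45.0 CPM, against 48.7, 64.5 and 99.1 CPM in water samples, with all 6 below the water median (log2 fold change -0.60, SE 0.19, adjusted p = 0.324).

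Mcm3 had a log2 fold change of -0.52 (SE 0.25, adjusted p = 0.510) and Mcm7 one of -0.41 (SE 0.29, adjusted p = 0.728). The loaders and the inhibitor were closer to 0, with Cdc6 at -0.06 (95% interval -0.43 to 0.32), Cdt1 at 0.10 (-0.26 to 0.46) and Gmnn at -0.12 (-0.48 to 0.24), and Mcm4 was at -0.17 (-0.57 to 0.24) and Mcm2 at 0.10 (-0.28 to 0.49). These intervals leave room for differences in either direction. Other fits that kept all 15 samples moved the calls. With DESeq2's Wald test Mcm6 (adjusted p = 0.000625) and Pcna (adjusted p = 0.00302) passed, and with 1 edgeR fit over all 35 libraries Mcm6 (adjusted p = 0.000139), Pcna (adjusted p = 0.000221) and Mcm5 (adjusted p = 0.00718) did. The fit over all libraries took 1 spread per gene over both stages. These genes varied by 5.22 to 17.9% of the mean in zygotes and 19.7 to 29.0% in 2C samples, so its adjusted p may be too small. The share of all genes called was not computed for either fit.

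Injection and index number were unevenly matched among 2C libraries, since U81 to U88 held 5 Kdm5b and 3 water samples and U89 to U95 held 1 and 6. The labels do not call these index ranges batches. For Mcm2, Mcm4, Mcm5 and Mcm7 all 3 water libraries of U85 to U87 lay above all 6 other water libraries, and those 3 are single embryos, whereas the other 6 include the 3 pools. How many of all genes lay apart in this way was not computed, so it cannot be called particular to these genes. Within U81 to U88, Mcm5 had 87.02, 99.1 and 90.4 CPM in the 3 water and 43.2, 53.9, 50.6, 27.6 and 45.0 CPM in the 5 Kdm5b samples. These groups did not overlap, and Mcm5 was 2.09-fold lower after Kdm5b (log2 fold change -1.07, SE 0.23, edgeR adjusted p = 0.0382). The share of all genes without overlap within U81 to U88 was not computed. Mcm6 had 103, 109 and 103 CPM in water and 66.9, 61.01, 58.1, 39.4 and 46.5 CPM in Kdm5b samples, again apart (log2 fold change -0.95, SE 0.21, adjusted p = 0.0472).

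Pcna had 112, 92.1 and 99.0 CPM in the 3 water libraries and 34.6, 61.95, 65.9, 55.0 and 43.9 CPM in the 5 Kdm5b libraries (log2 fold change -0.95, SE 0.23, edgeR adjusted p = 0.0587). Mcm7 had 81.5, 72.3 and 59.6 CPM in water and 25.4, 54.2, 31.1, 28.1 and 27.4 CPM in Kdm5b libraries (log2 fold change -1.10, SE 0.27, adjusted p = 0.0678). Both were without overlap, again with no share of all genes to set beside it, and missed the threshold. Mcm7 in the 6 other water libraries was 16.0 to 39.7 CPM, which covers most of the Kdm5b values, so no such gap is seen against those 6. For Mcm5 the same 6 libraries (48.7 to 64.5 CPM) overlapped the range of all Kdm5b 2C samples in part. For Pcna (55.9 to 114 CPM) and Mcm6 (63.9 to 129 CPM) they overlapped it only through the lowest library, U90 and U91, each a pool. The 6 single water embryos had at least 80.8 CPM of Pcna and 87.9 CPM of Mcm6, above every Kdm5b 2C sample. Even so, the fit of single 2C embryos called no member between Kdm5b and water. The share of all genes apart in this way was not computed. Mcm3 was at -0.92 (SE 0.31, adjusted p = 0.177), Mcm4 at -0.43, Mcm2 at -0.28, Cdc6 at -0.21, Gmnn at -0.13 and Cdt1 at -0.05. Within these libraries 2 of the 10 passed by adjusted p beside 0.813% of the 12426 genes tested, and the median log2 fold change was -0.68 over the 10 and 0.04 over all genes. With the index range as a covariate over all 15 samples, Mcm6 (-1.11, adjusted p = 0.00723), Pcna (-0.82, adjusted p = 0.0223) and Mcm5 (-0.79, adjusted p = 0.0259) passed. The share of all genes called with this covariate was not computed. The part of the index range in these values was not tested further.

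**Figure D4:**
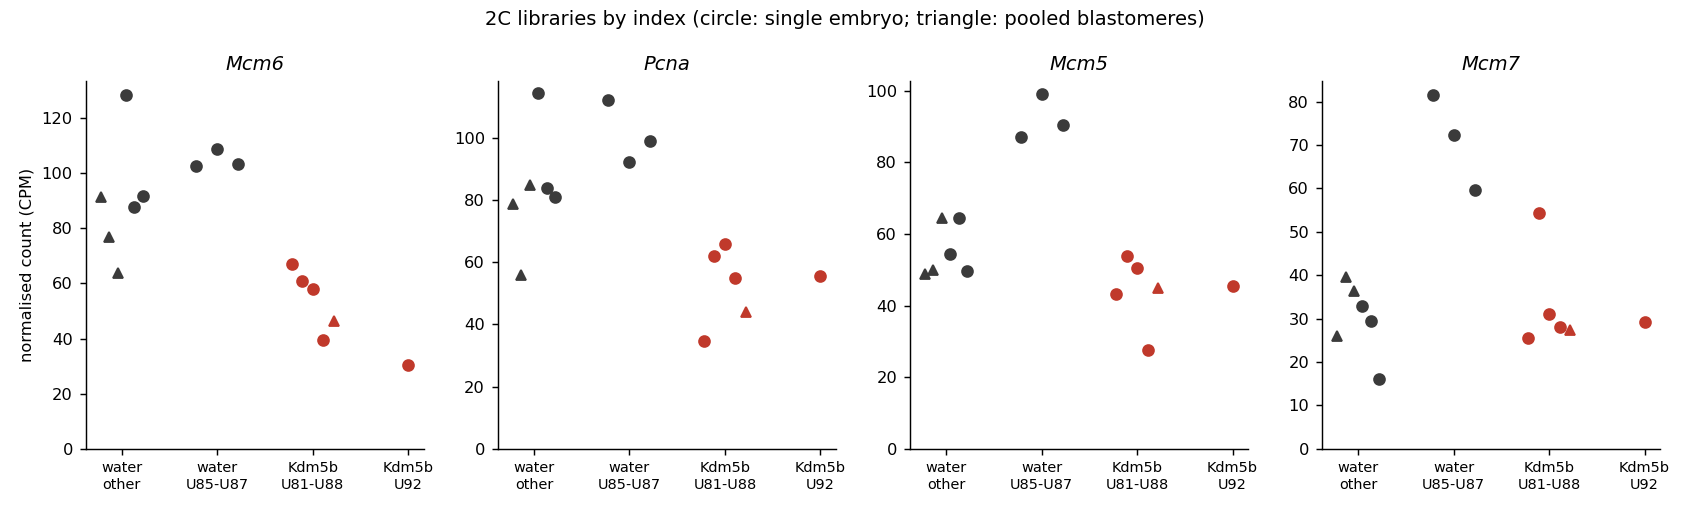
Normalised count (CPM) of Mcm6, Pcna, Mcm5 and Mcm7 in each 2C library, split by injection and index number, with circles for single embryos and triangles for pooled blastomeres. Water libraries U85 to U87 lie above all Kdm5b libraries for these 4 genes, and the share of all genes for which this holds was not computed. The other water libraries overlap the Kdm5b range widely in Mcm7 (16.0 to 39.7 CPM) and in part in Mcm5. In Mcm6 and Pcna they reach it only through a pooled sample each (63.9 and 55.9 CPM).

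**Figure D5:**
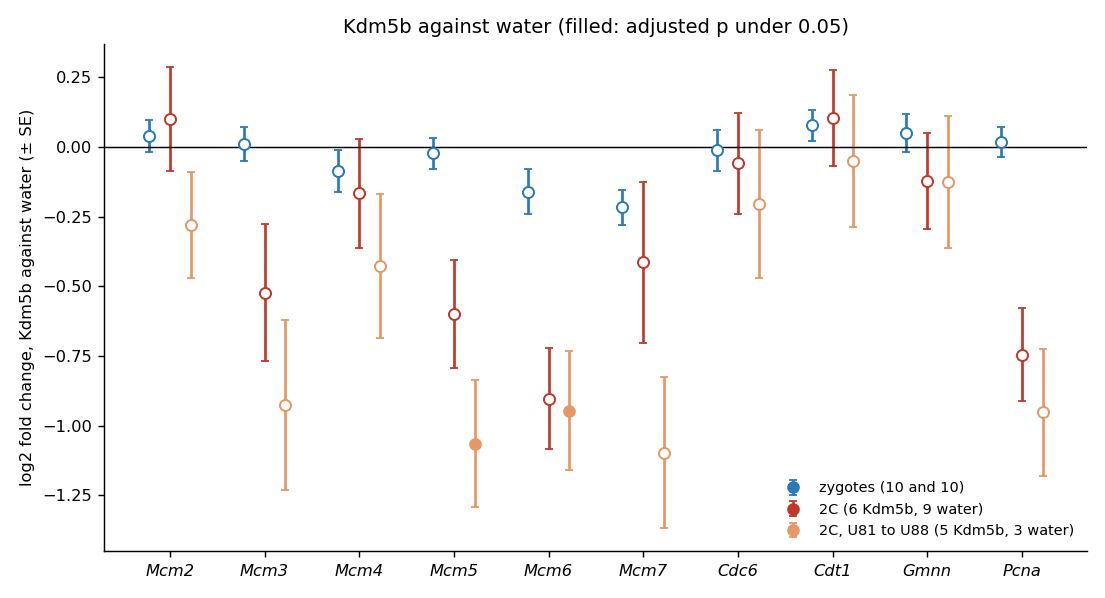
Log2 fold change of each gene between Kdm5b and water embryos in zygotes, in all 2C samples and in 2C libraries U81 to U88, with bars of 1 SE. Filled points have an adjusted p under 0.05, which holds only for Mcm5 (-1.07) and Mcm6 (-0.95) within U81 to U88.

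Whether the effect of Kdm5b differed between stages was tested as an interaction over all 35 libraries, which include the samples of every comparison above. Pcna alone of the 10 passed, beside 0.102% of the 13778 genes tested lower (difference of log2 fold changes -0.76, SE 0.16, edgeR adjusted p = 0.0262). Its log2 fold changes were 0.02 in zygotes and -0.75 in 2C samples. The interaction fit took 1 spread per gene over both stages. Pcna varied by 7.80 and 5.57% of the mean in water and Kdm5b zygotes, and by 20.2 and 22.1% in water and Kdm5b 2C samples. The SE of 0.16 was below the 0.17 of the 2C comparison alone, so this adjusted p may be too small. The call was lost without Kdm5b 2C replicate 1 or replicate 6, which hold the lowest Pcna values, with adjusted p up to 0.0634. The difference was -0.74 for Mcm6 (SE 0.18, adjusted p = 0.104), -0.58 for Mcm5 (SE 0.18, adjusted p = 0.222) and -0.54 for Mcm3 (SE 0.22, adjusted p = 0.417). For Mcm6 it passed in 3 of the 35 fits that left out a library, those without water 2C replicate 9 or Kdm5b 2C replicate 1 or 2 (lowest adjusted p = 0.0333).

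Other replication genes were described from a list of 67 written with earlier results known, of which 61 were tested. From water zygotes to water 2C samples 25 fell and 13 rose by adjusted p, beside 25.4% of all genes lower and 26.8% higher. Past both thresholds 15 of the 61 fell and 2 rose, beside 13.0% and 9.20% of all genes. The median log2 fold change was -0.31. Among subunits of the origin recognition complex, which marks origins for loading, Orc1 (-1.35) and Orc3 (-1.13) fell past both thresholds. Mcm10, which acts when the helicase is switched on, fell by 1.11 on the log2 scale. The GINS complex joins the helicase to make it active, and Gins1 (-3.10), Gins3 (-1.94) and Gins2 (-1.59) fell. Of the genes that load PCNA or process lagging-strand fragments, Rfc3 (-2.10), Rfc2 (-1.86) and the flap nuclease gene Fen1 (-1.41) fell. Chtf8, of an alternative clamp loader, rose by 2.00 (SE 0.53) at low levels, with medians of 1.70 CPM in water zygotes and 8.81 CPM in water 2C samples. Within Kdm5b embryos it rose by 0.95, short of the fold threshold. Prim2 (-1.55) and Prim1 (-1.19), of primase, and Rpa2 (-1.49), of the single-strand binding complex, fell.

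Cyclin E1, Ccne1, rose by 2.79 on the log2 scale, and the phosphatase gene Cdc25a fell by 1.19. In the group that degrades CDT1, 4 of 7 tested genes rose (Cul4b, Ddb1, Skp2 and Cul1) and 1 fell (Dtl) by adjusted p, beside the same 26.8% and 25.4% of all genes. These 5 were named after their values were seen, and none passed both thresholds. Within Kdm5b embryos 32 of the 61 fell and 14 rose from zygote to 2C by adjusted p, beside 29.5% and 29.3% of all genes. Between Kdm5b and water, 0 of the 61 passed in zygotes or in 2C samples by edgeR, with 8 and 6 at an unadjusted p under 0.05, beside 10.3% and 9.41% of all genes. DESeq2's Wald test called 1 in zygotes (Ticrr, named after its value was seen) and 0 in 2C samples.

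For each of the 10, the gene outside the list with the most similar profile was sought among 13768 genes, as the smallest root mean square difference of mean-centred log2 CPM over the 35 libraries. Mcm3 and Mcm5 had the same nearest gene, Nars, at 0.22 and 0.20. Mcm6 was nearest to Esco2 at 0.27, the largest of these distances, and Pcna to Nlrp4a at 0.21. The others were Rfpl4 for Mcm2 (0.17), Depdc7 for Mcm4 (0.24), Sf3a1 for Mcm7 (0.22), Pycrl for Cdt1 (0.19), Zfp655 for Gmnn (0.19) and Fam204a for Cdc6 (0.21). The median distance to all genes was 0.75 to 1.13. Esco2 medians were 273 and 283 CPM in water and Kdm5b zygotes and 262 and 143 CPM in water and Kdm5b 2C samples.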

How the data were processed

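The authors made SMART-Seq Stranded total RNA libraries, trimmed reads with fastp 0.21.0, aligned them to GRCm38 with STAR 2.7.3a and counted sense-strand fragments per RefSeq gene with featureCounts 1.5.1. The deposited table holds raw counts for 24480 genes in 35 samples, and 0 columns belonged to no sample. Fragments that fit several places are not counted by default, which would include those shared by Pcna and its pseudogenes Pcna-ps1 and Pcna-ps2. The deposited repeat table was not used. No member shares exons with a gene on its own strand. The members and gene lists were chosen with earlier results of these data known.

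After the Kdm5b row had been taken out, every contrast was run on its 2 groups alone in edgeR 4.0.16 (R 4.3.3, TMM, filterByExpr at a minimum count of 10, quasi-likelihood test, Benjamini-Hochberg adjustment over all genes tested), and the interaction on all 4 groups. CPM used TMM factors over all 35 libraries, and TPM used the deposited exon lengths. The code was tested on simulated data. Named genes are the 10 members, the nearest gene of each, and from each pathway list at most the 3 highest and 3 lowest past both thresholds between water 2C and water zygotes. Cul4b, Ddb1, Skp2, Cul1, Dtl and Ticrr fall outside this rule. In no group were 2 libraries alike within counting noise (squared differences at least 11.5 times it). Samples are separate embryos or pools. Same-numbered samples of different groups did not deviate together (r from -0.18 to 0.10). Alternatives were DESeq2 1.42.0 (size factors, Wald test), no filter, the Kdm5b row kept, 1 fit of all samples, single 2C embryos, the index range, the replicate block and each library left out. Figures used matplotlib 3.10.9.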

Additional observations from a re-analysis of the deposited data

Results flagged for a closer look

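Chance would single out about 1 in 20 groups for a gap to the next sample, and 3 of the 40 groups examined had one. Gmnn was 116.6 CPM in water 2C replicate 4, where the next highest sample had 79.2 CPM. Mcm7 was 54.2 CPM in Kdm5b 2C replicate 2, with the next at 31.1 CPM, and 118.0 CPM in Kdm5b zygote replicate 8, with the next at 101.2 CPM. The effect of Kdm5b on Pcna differed between stages in the interaction test, by -0.76 on the log2 scale (edgeR adjusted p = 0.0262). That test took 1 spread per gene over both stages, while Pcna varied more in 2C samples than in zygotes, so its adjusted p may be too small.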

How the results depend on the processing

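Of the alternatives, those on the 2C libraries moved most. In Kdm5b against water 2C samples, members past adjusted p numbered 0, against 2 with DESeq2's Wald test, 1 with no filter (Mcm6), 3 in 1 fit of all samples, 2 within U81 to U88, 3 with the index range as a covariate and 1 with the replicate block; past both thresholds 1 passed within U81 to U88, with the index range and with the replicate block. The fit of single 2C embryos called no member in this comparison. The replicate block called Mcm6 (log2 fold change -1.07, edgeR adjusted p = 0.0380) and changed no other call. That fit kept only replicate numbers present in both groups. In 2C samples it therefore also left out the 3 pooled water samples, and the part of each change was not tested. In zygotes DESeq2's Wald test called 1 member. Between water stages 2 passed both thresholds with U85 to U87 only, and Mcm6 fell without water 2C replicate 4 (adjusted p = 0.0416) and with no filter (adjusted p = 0.0460). For the interaction 1 member passed adjusted p, against 2 with DESeq2's Wald test, 2 with single embryos, 4 with the index range and 5 within U81 to U88 (1 past both), and 0 to 2 when a library was left out. The fits within U81 to U88 between stages, and both index settings for the interaction, were chosen after seeing the data. Shares of all genes called were not computed for the alternative settings, apart from Kdm5b against water within U81 to U88 (0.813% lower). The interaction and the 1 fit of all samples took 1 spread per gene over both stages, so their adjusted p may be too small.

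Signs turned only for values that did not pass. In Kdm5b against water 2C samples, within U81 to U88 and with the index range, Mcm2 was -0.28 and -0.13 and Cdt1 -0.051 and -0.032, and in the interaction Mcm2 was -0.34 and -0.18 and Cdt1 -0.15 and -0.12. Between water stages Mcm2 was -0.022 with no filter, and Pcna 0.022 with single embryos and 0.051 within U81 to U88. Between Kdm5b stages Gmnn was 0.050 with DESeq2 size factors, 0.048 with its Wald test, 0.080 with single embryos and 0.027 within U81 to U88. Leaving out a library gave, in zygotes, Mcm3 -0.0067 to 0.032, Mcm5 -0.041 to 0.0027, Pcna -0.010 to 0.037 and Cdc6 -0.037 to 0.021, between stages Mcm2 (water) -0.0069 to 0.16 and Gmnn (Kdm5b) -0.11 to 0.080, and for the interaction Mcm2 -0.032 to 0.14, Mcm4 -0.20 to 0.034, Cdt1 -0.076 to 0.13 and Cdc6 -0.11 to 0.013. The 6 Kdm5b 2C samples had a spread of 19.0 to 34.9% of the mean, and no smallest detectable difference was computed.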
